A study of Mus musculus with 9 samples.

Results

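Chemokines and chemokine receptors were examined in mouse liver RNA. The family was taken by gene name, as every symbol that starts with Ccl, Cxcl, Cx3cl, Ccr, Cxcr, Cx3cr or Ackr and goes on with a number and at most 1 letter. Of the 27945 genes with a count, 55 matched, namely 35 ligands, 16 signalling receptors and 4 atypical receptors. Enough counts to compare the groups were present for 41 of the 55, which were 25 ligands and 16 receptors.

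Polyadenylated RNA was sequenced in 9 libraries, 3 each of livers labelled treated, model and control. The series title speaks of liver damage after gefitinib, a drug that blocks EGFR signalling, but the labels name no agent, strain, sex, age, dose or time for any group, and not whether model and treated mice share an agent. Sample titles speak of liver cells and the source is liver, so whole tissue and isolated cells cannot be told apart. Replicates are numbered without a statement that each is another animal, and the tests below use the spread among numbered libraries, which may be technical.

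Chemokines are small secreted proteins that bind to glycosaminoglycans and form gradients along which leukocytes migrate. They act through receptors coupled to inhibitory G proteins, and atypical receptors take chemokines up without that signal. In liver, ligands come from hepatocytes, macrophages, endothelium and stellate cells, and they draw neutrophils, monocytes and lymphocytes into the sinusoids. Transcription of many inflammatory ligands is induced through NF-kB, and that of the Cxcr3 ligands through interferon-activated factors that bind the interferon-stimulated response element (ISRE).

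The sequences below are the 250 bases before the RefSeq transcription start (assembly GRCm38.p6) of Cxcl1, Cxcl2 and Cxcl10, shown because these 3 ligands were each higher in treated than in control livers and carry matches to the NF-kB consensus, a site of 10 bases. Capitals mark the matches to that consensus and, in Cxcl10, the match to the ISRE core (GAAA, any 2 bases, GAAA). The windows lie at chr5:90890995-90891244 on the plus strand, chr5:90903649-90903898 on the plus strand and chr5:92348890-92349139 on the minus strand, and each is written 5′ to 3′ on the strand of its gene.
Cxcl1: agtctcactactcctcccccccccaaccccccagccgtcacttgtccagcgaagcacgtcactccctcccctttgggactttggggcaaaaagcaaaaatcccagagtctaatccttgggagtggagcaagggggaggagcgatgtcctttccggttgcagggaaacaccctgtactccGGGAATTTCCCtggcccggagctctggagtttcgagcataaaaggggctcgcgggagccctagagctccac
Cxcl2: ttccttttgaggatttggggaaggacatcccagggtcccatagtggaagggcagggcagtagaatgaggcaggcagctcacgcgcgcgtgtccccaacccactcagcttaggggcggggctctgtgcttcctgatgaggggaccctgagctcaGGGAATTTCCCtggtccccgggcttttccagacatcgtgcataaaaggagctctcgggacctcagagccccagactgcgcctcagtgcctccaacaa
Cxcl10: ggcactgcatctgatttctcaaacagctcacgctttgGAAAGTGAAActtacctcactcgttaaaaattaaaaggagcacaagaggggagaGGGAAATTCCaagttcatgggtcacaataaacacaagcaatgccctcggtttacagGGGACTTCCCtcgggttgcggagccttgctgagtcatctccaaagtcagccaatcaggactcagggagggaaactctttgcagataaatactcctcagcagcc

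In Cxcl1 and Cxcl2 the capitals hold 2 matches that overlap and start 1 base apart. Both motifs were searched on both strands of windows of 300 bases, from 250 before to 50 after the start. Windows were matched for 41 of the 55 members, 48 windows in all. The NF-kB consensus was present in 9 of those 48 windows (18.75%), against 4.505% of 32851 mouse windows, and the ISRE core in 3 of 48 (6.25%), against 3.443%. Of the 9 members higher in treated than control livers that had a window, 4 held an NF-kB match (Cxcl1, Cxcl2, Cxcl10 and Ccl9), and of the 5 lower ones 2 did (Ackr2 and Ccl27a). A match describes letters and is not a binding site.

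Totals were 56440871 to 60665156 estimated counts per library. Low counts of long transcripts with a single exon piled up at multiples of 4, with 1727 values equal to 4 against 865 equal to 3 and 629 equal to 5, and how many sequenced fragments a small count stands for is not known. Hepatocyte markers dominated each group, with Alb (albumin) at 49850 ± 4844 CPM in treated, 59180 ± 992.3 CPM in model and 58470 ± 7047 CPM in control livers (SD, n = 3 each). CPM are counts relative to library size, scaled by TMM. Markers of skeletal muscle, a list of 12 genes, summed to 151 to 190 CPM in the 3 treated libraries and to 220.6 CPM in model replicate 1, but to at most 1.10 CPM in the other model libraries and 1.38 CPM in the control libraries.

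Ligand FPKM summed to more, and were differently composed, in treated livers. FPKM are fragments scaled to transcript length and library depth, used here to set levels of genes side by side. Summed over the 35 ligands, they reached 152, 115 and 125 in treated livers. The sums were 76.7, 78.2 and 89.5 in model and 87.8, 71.4 and 72.3 in control livers, without overlap with treated libraries. On log2(FPKM + 0.1) the median log2 fold change of all genes was 0.15 for treated over model and 0.18 for treated over control livers. On CPM, not scaled to length, Cxcl12 averaged 173.7 in treated, 293.7 in model and 382.5 in control livers. A sum of CPM therefore need not follow that of FPKM. Cxcl12 made up 14.4 to 17.99% of the FPKM sum in treated, 35.3 to 41.7% in model and 46.7 to 55.9% in control livers. Cxcl1 made up 14.5 to 29.9% in treated, 7.95 to 20.1% in model and 1.78 to 6.18% in control livers. Ccl9 held a similar share in all groups, 18.5 to 22.1% in treated, 19.5 to 21.4% in model and 18.5 to 21.8% in control livers. By gene FPKM the highest ligand was Cxcl12 in each model and control library. In treated livers it was Cxcl1 in replicates 1 and 3 and Ccl9 in replicate 2. Summed over transcripts, FPKM put Cxcl12 first in treated replicates 2 and 3 as well, and left Cxcl1 first in replicate 1. In treated replicate 2 the Cxcl12 transcripts had 4.20, 16.8, 15.9 and 11.1 FPKM, against 14.1 and 9.50 for Cxcl1 and 24.0 for Ccl9. The sums and shares above and the means below are those of gene FPKM. In treated livers Cxcl1 at 30.1 ± 14.5 FPKM, Ccl9 at 26.5 ± 2.39 FPKM and Cxcl12 at 20.6 ± 1.36 FPKM led, and the spread of Cxcl1 covered both neighbours in that order. Receptor FPKM were lower throughout and summed to 7.24 to 9.16 over the 20 receptors in treated, 4.29 to 6.26 in model and 4.30 to 7.13 in control livers.

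**Figure D1:**
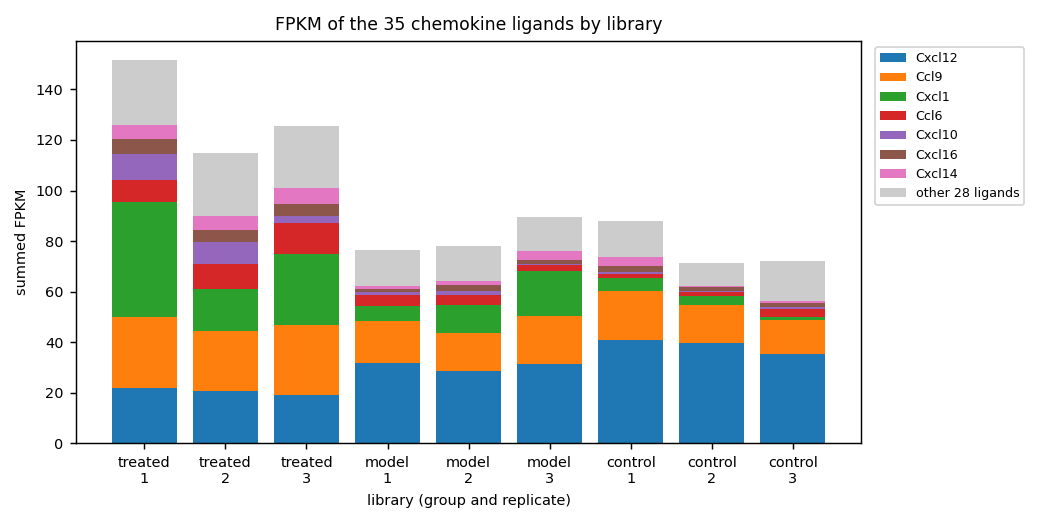
FPKM of the 35 chemokine ligands stacked for each of the 9 libraries (y axis, summed FPKM; x axis, group and replicate). Treated libraries reach 115 to 152 FPKM with a smaller Cxcl12 block than the 6 model and control libraries, which reach 71.4 to 89.5 FPKM.

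Gene by gene, 8 members were higher and 2 lower in treated than in model livers, at an adjusted p under 0.05 (edgeR quasi-likelihood test with Benjamini-Hochberg adjustment over all 18113 genes tested). Among all genes tested 5.21% were higher and 4.44% lower, 9.65% in either direction. In treated against control livers, 12 members were higher and 5 lower, where 9.36% and 8.47% of all genes were, 17.8% in either direction. On log2(FPKM + 0.1) with limma the split was 13 higher and 1 lower against model livers, where 9.19% and 2.21% of all genes were. Against control livers it was 18 higher and 4 lower, where 18% and 4.76% of all genes were. In model against control livers no member was called by edgeR, where 0.519% of all genes were higher and 0.596% lower, 1.12% in either direction. There 8 members had an unadjusted p under 0.05, as did 13.9% of all genes. DESeq2 called 1 member higher and 3 lower (2.3% and 2.11% of all genes), and limma-voom called 1 lower (0.519% of all genes). Calls below are those of edgeR unless another tool is named. The edgeR shares of all genes given here also stand beside the marker and pathway lists below. The median log2 fold change of the 41 members was 0.37 for treated over model, 0.52 for treated over control and 0.11 for model over control livers, against 0.01, -0.01 and about 0 (-9e-04) over all genes. These 3 comparisons share libraries in pairs and are not independent of each other.

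**Figure D2:**
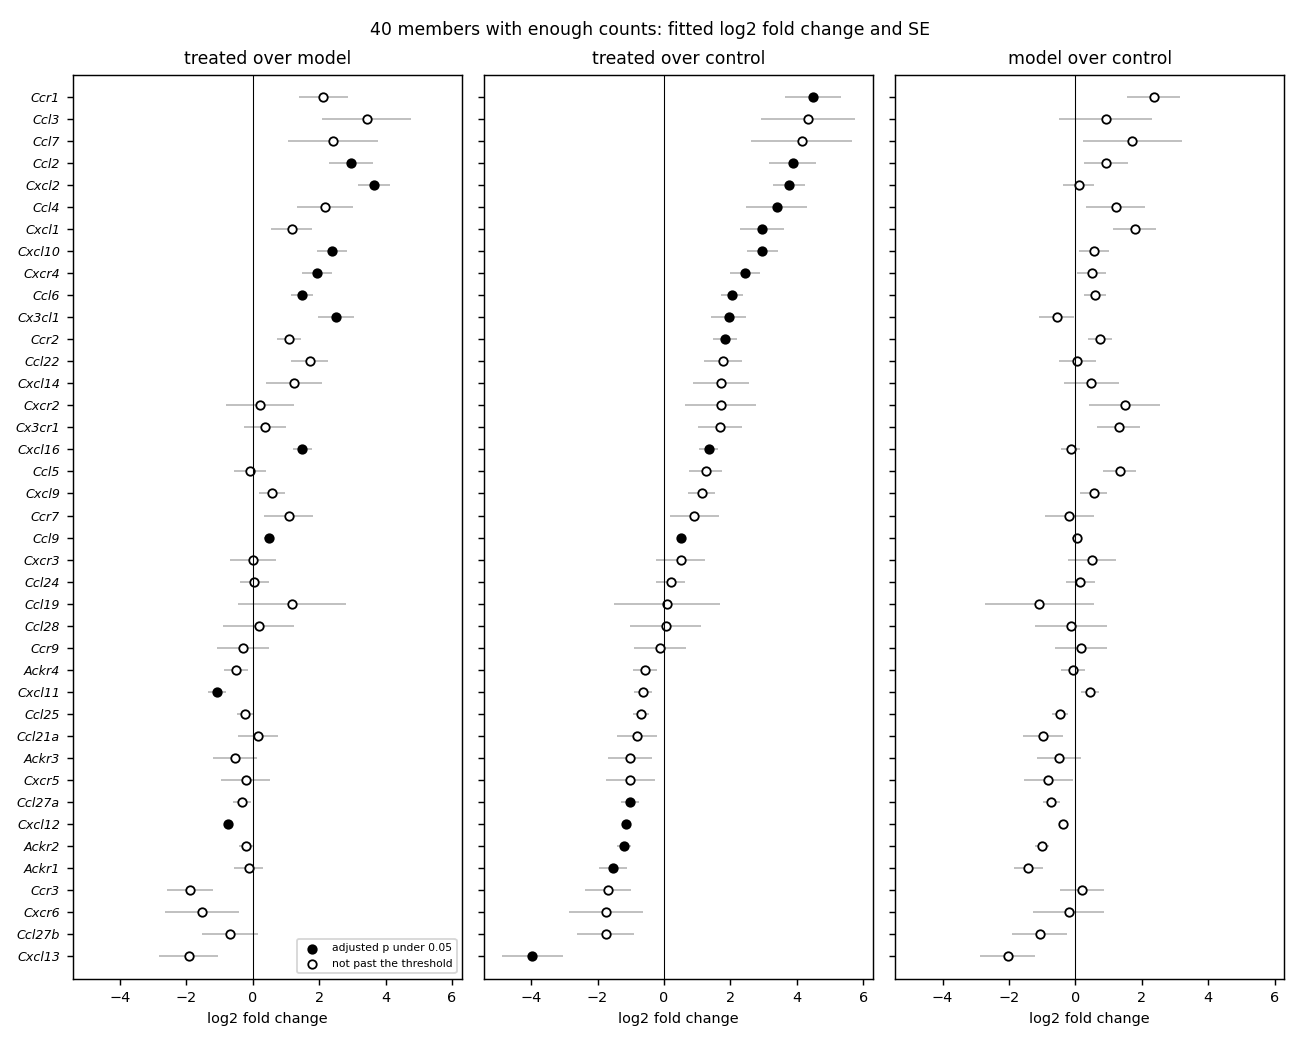
Fitted log2 fold changes with standard errors of 40 of the 41 members with enough counts (rows, ordered by treated over control), in 3 panels for treated over model, treated over control and model over control. Filled points passed an adjusted p under 0.05: 10 in the left panel, 17 in the middle panel and none in the right panel.

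Among ligands of Cxcr1 and Cxcr2, the receptors of neutrophils, Cxcl1 and Cxcl2 had enough counts to compare, and both were higher in treated than in control livers. Cxcl1 (chromosome 5, 90891241 to 90893115, GRCm38), the main neutrophil chemokine of hepatocytes and macrophages in mouse, had 84.7, 32.5 and 56.4 CPM in treated livers, 13.9, 23.9 and 38.9 CPM in model livers and 11.9, 7.48 and 2.91 CPM in control livers. Each model library lay above each control library, and treated and model libraries overlapped. The fold was 7.78 for treated over control livers (log2 fold change 2.96, SE 0.66, adjusted p = 0.0243), whereas 2.26-fold over model livers did not pass (adjusted p = 0.308), nor did 3.44-fold for model over control livers (adjusted p = 0.282). The call against control was lost without control replicate 2, treated replicate 1 or treated replicate 3 (highest adjusted p = 0.0869).

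Cxcl2, its neighbour on chromosome 5 (90903871 to 90905938) and a ligand of Cxcr2, had 2.01, 2.81 and 1.81 CPM in treated livers, 0.144, 0.133 and 0.245 CPM in model livers and 0.143, 0.192 and 0.149 CPM in control livers. The treated libraries stood apart from all 6 others. It was 12.6-fold higher than in model livers (log2 fold change 3.65, SE 0.47, adjusted p = 0.00115) and 13.5-fold higher than in control livers (adjusted p = 0.000489), and both calls held under every alternative that tested the gene. Both folds rest on small estimated counts, 8, 8 and 14 in the model and 8, 10 and 8 in the control libraries. Cxcl3, another ligand of Cxcr2, had 5, 9 and 9 counts in the treated libraries and 0 in the other 6, and Cxcl5 at most 11 counts in a library, so neither could be compared. Cxcr2 had 0.323, 0.351 and 1.73 CPM in treated livers, 0.378, 0.965 and 0.717 CPM in model livers and 0, 0.269 and 0.466 CPM in control livers, with no call, and Cxcr1 had at most 12 counts in a library. The 12 neutrophil markers summed to 13.7 to 207 CPM in treated, 15.7 to 35.1 CPM in model and 3.86 to 6.59 CPM in control livers, with Ly6g and Mmp8 at 0 in the control libraries, and 5 of 11 tested were called higher in treated than in control livers (3 without model replicate 1). The highest neutrophil marker sum and the highest Cxcr2 were both in treated replicate 3. The part of these cells in the ligand values was not tested.

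The 3 ligands of Cxcr3, a receptor of activated T cells and natural killer cells, differed from each other. Cxcl10 (chromosome 5, 92346638 to 92348882) had 22.7, 20.5 and 6.86 CPM in treated livers, 3.24, 4.49 and 1.80 CPM in model livers and 2.02, 2.08 and 2.33 CPM in control livers. It was 5.24-fold higher in treated than in model livers (log2 fold change 2.39, SE 0.46, adjusted p = 0.0125) and 7.78-fold higher than in control livers (adjusted p = 0.00279). The lowest treated library was replicate 3, still above all others, and the call against model was lost without model replicate 1 (adjusted p = 0.0607). Cxcl11 went the other way, with 3.75, 2.86 and 3.40 CPM in treated livers, 6.57, 5.46 and 9.13 CPM in model livers and 5.02, 6.67 and 3.92 CPM in control livers. It fell 2.11-fold in treated relative to model livers (adjusted p = 0.0283). Of 15 alternatives 7 ended this call, including each fit with 1 treated library left out and those without model replicate 1 or 3. Treated libraries lay below all control libraries too, without a call (adjusted p = 0.121). The annotation lists Cxcl11 as polymorphic pseudogene as well as protein coding, and with no strain named a working protein cannot be assumed.

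Cxcl9, at 12.4 ± 5.36 CPM in treated, 8.31 ± 2.92 CPM in model and 5.63 ± 2.39 CPM in control livers, was not called (adjusted p = 0.443 against model and 0.0883 against control livers). Cxcr3 itself had 0.639 ± 0.296 CPM in treated, 0.639 ± 0.134 CPM in model and 0.452 ± 0.326 CPM in control livers. Ifng, the cytokine that induces these ligands, was at 0 in the 3 treated libraries and at most 0.214 CPM in any library. Of 20 interferon-gamma response genes tested, 1 was higher and 1 lower in treated than in model livers, and 5 were higher and 1 lower than in control livers. Without model replicate 1, 2 were higher than in model livers. Irf8, a transcription factor of myeloid cells, was 2.36-fold higher than in control livers (adjusted p = 0.00167), and Irgm2, an interferon-induced GTPase, fell 1.96-fold relative to model livers (adjusted p = 0.00696).

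**Figure D3:**
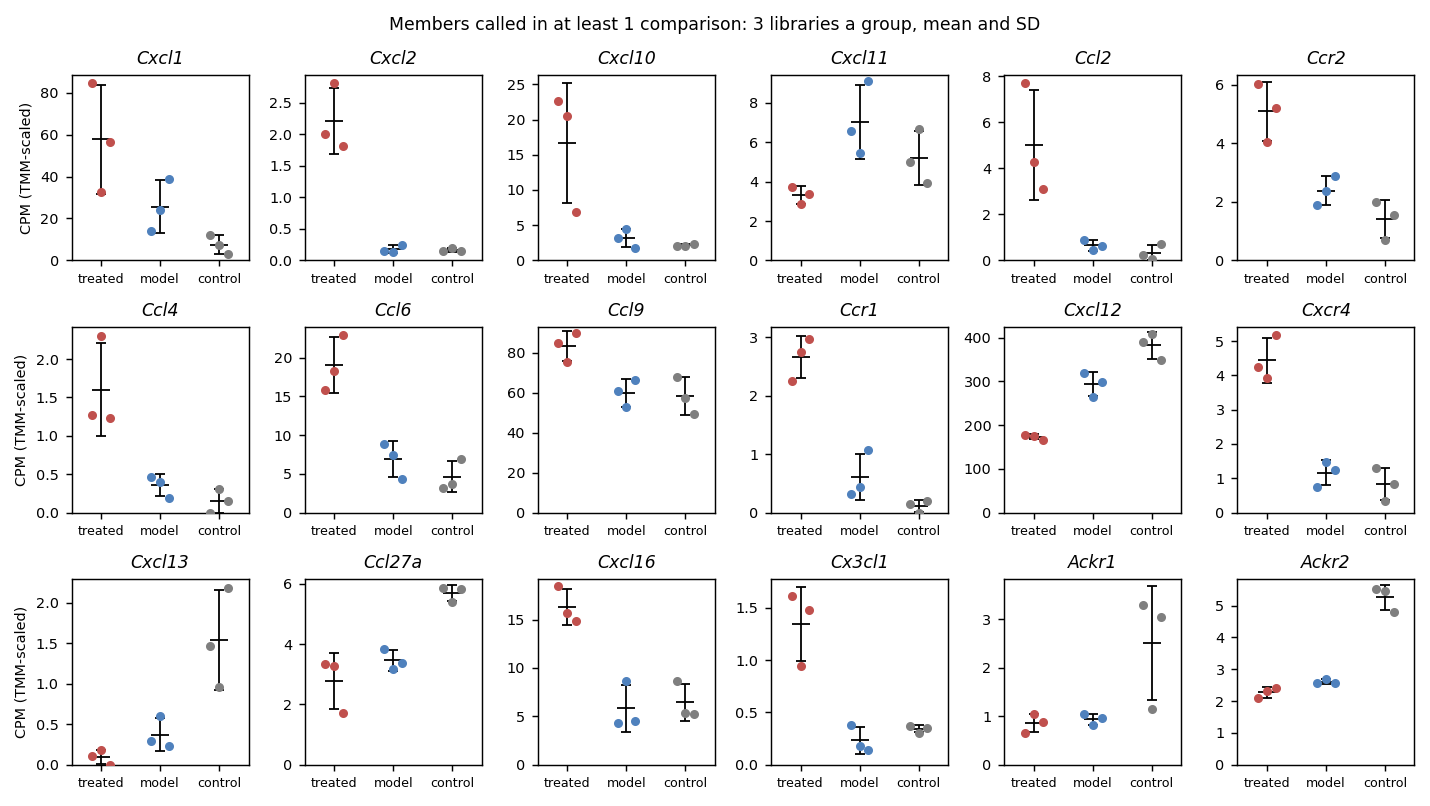
Levels in CPM (y axes, each from 0) of the 18 members called in at least 1 comparison, with 1 point per library, the mean and the SD, for treated, model and control livers from left to right. In 12 panels the treated libraries stand above the control libraries, as in Cxcl2, and in 6, such as Cxcl12 and Cxcl11, they stand below them.

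Of the 3 genes tested on the Ccr2 axis, Ccl2 was higher in treated livers than in both other groups and Ccr2 was higher than in control livers. Ccl2 (chromosome 11, 82035571 to 82037453), the main ligand of the monocyte receptor Ccr2, had 7.70, 4.29 and 3.08 CPM in treated livers, 0.882, 0.433 and 0.630 CPM in model livers and 0.214, 0.0769 and 0.727 CPM in control livers. The treated libraries lay above all others, while model and control libraries overlapped. Ccl2 was 7.74-fold higher than in model livers (log2 fold change 2.95, SE 0.67, adjusted p = 0.0221) and 14.7-fold higher than in control livers (adjusted p = 0.00423). The control libraries held 12, 4 and 39 estimated counts of Ccl2. The call against model was lost without any 1 of the model libraries or treated replicate 1 (highest adjusted p = 0.0855), and the log2 fold change of 3.88 against control became 5.08 without control replicate 3. Ccr2 had 6.02, 4.05 and 5.21 CPM in treated livers, 1.91, 2.36 and 2.89 CPM in model livers and 2.00, 0.711 and 1.55 CPM in control livers. It was 3.58-fold higher in treated than in control livers (adjusted p = 0.00646), and its 2.13-fold over model livers was not called (adjusted p = 0.0858) although the libraries did not overlap. Ccl7, a further ligand of Ccr2, had 0.464 ± 0.120 CPM in treated, 0.0843 ± 0.0924 CPM in model and 0.0238 ± 0.0413 CPM in control livers, without a call by edgeR on all libraries. Against control livers it was called by DESeq2 (adjusted p = 0.0245), limma-voom (0.0466), edgeR on those 2 groups alone (0.0494) and limma on FPKM (0.00363). Limma on FPKM also called it against model livers (0.0194). Ccl8 and Ccl12 had at most 14 and 4 counts in a library.

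Among inflammatory Ccl ligands of monocytes, macrophages, eosinophils and effector T cells, Ccl4, Ccl6 and Ccl9 were higher in treated than in control livers, as was the receptor Ccr1. Ccl9 (chromosome 11, 83572919 to 83578636), a ligand of Ccr1 found in rodents, had 84.9, 75.3 and 89.9 CPM in treated livers, 60.8, 52.6 and 66.1 CPM in model livers and 68.0, 57.2 and 49.1 CPM in control livers. The treated libraries lay above all others, while model and control libraries overlapped. The difference was 1.39-fold over model (adjusted p = 0.0478) and 1.44-fold over control livers (adjusted p = 0.0217). The call against model was lost without any 1 of the 6 libraries, and that against control without control replicate 2 or 3 or treated replicate 1 or 3 (highest adjusted p = 0.0749).

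Ccl6 (chromosome 11, 83587882 to 83593087), the neighbouring Ccr1 ligand, had 15.8, 18.4 and 23.0 CPM in treated livers, 8.90, 7.44 and 4.30 CPM in model livers and 3.22, 3.69 and 6.90 CPM in control livers. It was 2.77-fold higher than in model livers (adjusted p = 0.0237), without a call when model replicate 2 or 3 or treated replicate 2 or 3 was left out (highest adjusted p = 0.0699), and 4.14-fold higher than in control livers (adjusted p = 0.00305). Ccr1, their receptor, had 2.26, 2.75 and 2.97 CPM in treated livers, 0.324, 0.433 and 1.07 CPM in model livers and 0.143, 0 and 0.205 CPM in control livers. The 3 groups formed separate ranges, and Ccr1 was 22.4-fold higher in treated than in control livers (log2 fold change 4.49, SE 0.84, adjusted p = 0.00431). Its control libraries held only 8, 0 and 11 estimated counts. Neither treated over model (4.36-fold, adjusted p = 0.0965) nor model over control livers (5.14-fold, adjusted p = 0.213) passed by edgeR. Treated over model was called by DESeq2 (adjusted p = 0.00892), limma-voom (0.0186), edgeR on those 2 groups alone (0.0277), limma on FPKM (0.00809) and with counts divided by 4 (0.0267). Without control replicate 3 the log2 fold change of treated over control livers was 5.15.

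Ccl4, an inflammatory chemokine of activated macrophages and lymphocytes, had 1.28, 2.31 and 1.23 CPM in treated livers, 0.468, 0.399 and 0.192 CPM in model livers and 0, 0.308 and 0.149 CPM in control livers. It was 10.5-fold higher in treated than in control livers (adjusted p = 0.0269), a call lost without control replicate 3 or treated replicate 1 or 2 (highest adjusted p = 0.0904). Its log2 fold change of 3.39 became 4.40 without control replicate 2 and 2.80 without control replicate 1. The control libraries held 0, 16 and 8 estimated counts of Ccl4. Ccl3, its close relative, had 1.42, 1.62 and 1.61 CPM in treated livers, 0.108, 0.316 and 0 CPM in model livers and 0, 0 and 0.224 CPM in control livers, which is apart from both groups but not past the threshold (adjusted p = 0.15 and 0.0634 by edgeR, against 0.0425 and 0.00597 by DESeq2). Ccl5 differed in pattern, with 3.22 ± 0.659 CPM in treated, 3.42 ± 0.634 CPM in model and 1.35 ± 0.868 CPM in control livers, and both treated and model libraries lay above the control libraries without a call. Ccl24, a ligand of the eosinophil receptor Ccr3, had 3.13 ± 0.972 CPM in treated, 3.03 ± 1.16 CPM in model and 2.72 ± 1.38 CPM in control livers. Ccr3 had 0.612 ± 0.529, 2.26 ± 1.72 and 1.98 ± 0.599 CPM in treated, model and control livers. Neither gene was called by edgeR, while DESeq2 called Ccr3 lower in treated than in model livers (log2 fold change -1.88, adjusted p = 0.0348). Without treated replicate 3, edgeR called Ccr3 lower than in model (adjusted p = 0.0404) and control livers (adjusted p = 0.0317).

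The sum of macrophage markers was also higher in treated livers, unevenly over the list. The 12 markers summed to 983 to 1124 CPM in treated, 236 to 312 CPM in model and 168 to 234 CPM in control livers, and none was at 0. Of the 12, 6 were called higher in treated than in model livers (7 against control), and 3 higher in model than in control livers. Lyz2 held 25.09% of the treated sum. Gpnmb was at 254 ± 68.0 CPM in treated and 1.56 ± 0.275 CPM in control livers, and Adgre1 at 6.04 ± 0.604 and 5.58 ± 1.20 CPM, both named after their values were seen. Monocyte markers without Fn1, which hepatocytes also express and which held 97.88 to 99.4% of that list's sum, added up to 18.6 to 30.6 CPM in treated, 12.3 to 12.4 CPM in model and 5.28 to 7.31 CPM in control livers. Of the 8 monocyte markers 1 was called higher than in model livers (0 without model replicate 1) and 5 higher than in control livers. Kupffer cell markers overlapped between groups, at 369 to 617 CPM in treated, 446 to 507 CPM in model and 432 to 545 CPM in control livers, with 1 of 8 called lower in treated than in model livers and 2 higher and 1 lower than in control livers. Marco, a scavenger receptor, was at 17.6 ± 11.4 CPM in treated and 2.84 ± 0.963 CPM in control livers, and Slc40a1, the iron exporter, at 85.6 ± 13.04 CPM in treated and 172 ± 12.9 CPM in control livers, both named after their values were seen. More cells of a type and more RNA per cell cannot be told apart in these bulk libraries, and the part of macrophages in the ligand values was not tested.

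**Figure D4:**
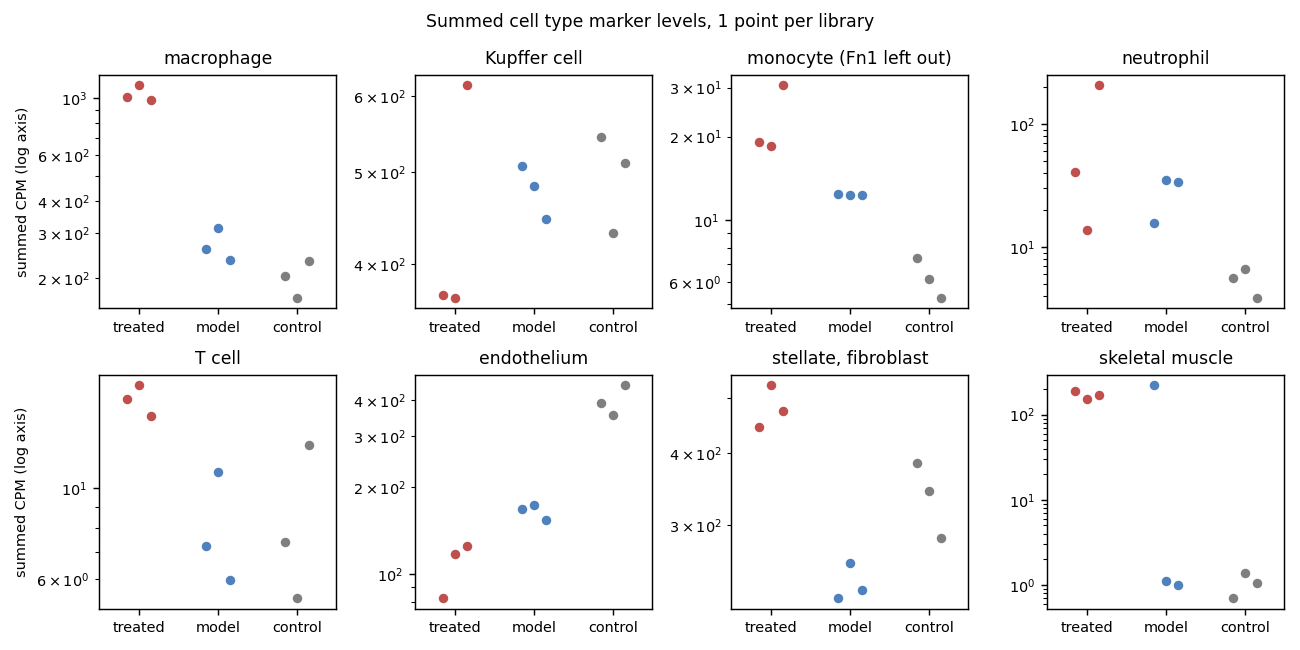
Summed CPM of 8 lists of cell type markers (log axes, 1 point per library; treated, model and control from left to right; Fn1 left out of the monocyte list). Macrophage sums of treated libraries lie at 983 to 1124 CPM, above all others, endothelial sums fall in 3 separate ranges, and skeletal muscle markers are high in the 3 treated libraries and 1 model library.

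The Cxcl12 axis moved in opposite directions at ligand and receptor. Cxcl12 (chromosome 6, 117168535 to 117181367), which holds Cxcr4-bearing leukocytes and progenitors in place and is made by stromal cells and endothelium, had 178, 176 and 167 CPM in treated livers, 318.5, 264 and 299 CPM in model livers and 391, 407.5 and 349 CPM in control livers. The 3 groups did not overlap. It fell by 0.76 on the log2 scale relative to model (SE 0.11, adjusted p = 0.00216) and by 1.14 relative to control livers (SE 0.11, adjusted p = 0.000108), and both calls held under all alternatives. Model over control livers was 0.77-fold (log2 fold change -0.38, adjusted p = 0.133 with edgeR, and 0.0294 with DESeq2).

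Cxcr4, its receptor, had 4.24, 3.91 and 5.18 CPM in treated livers, 0.756, 1.48 and 1.24 CPM in model livers and 1.29, 0.346 and 0.839 CPM in control livers. It was 3.82-fold higher in treated than in model livers (log2 fold change 1.93, SE 0.44, adjusted p = 0.0218), a call lost without model replicate 1 or 3 or treated replicate 1 or 3 (highest adjusted p = 0.0856), and 5.37-fold higher than in control livers (adjusted p = 0.00437). Ackr3, the atypical receptor that takes up Cxcl12, had 0.369 ± 0.240 CPM in treated, 0.531 ± 0.173 CPM in model and 0.750 ± 0.292 CPM in control livers, with overlapping libraries. The 4 annotated Cxcl12 transcripts shared their summed FPKM unevenly, and the share of each swung between libraries. It was 4.82 to 34.6% for the longest, 5627 bases, and 21.2 to 53.4% for that of 3132 bases. No statement on isoforms was therefore possible.

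Over the 9 libraries, the genes outside the family whose log2 CPM were most like those of Cxcl12 were Timm44, a mitochondrial import factor (Pearson r = 0.9843), Bik, a proapoptotic BCL2 family gene (r = 0.9839), and Timd2 (r = 0.9817). These correlations follow the 3 groups and were picked from all genes tested, so they are a description. Endothelial markers, a list of 12, summed to 82.4 to 125 CPM in treated, 154 to 173 CPM in model and 356 to 451 CPM in control livers, with 6 of 12 called lower in treated than in model and 11 of 12 lower than in control livers. In model against control livers 8 of 12 were called lower. Their median log2 fold change was -1.50 for model over control and -0.72 for treated over model livers. Without model replicate 1, 3 of 12 were lower in treated than in model livers and 6 of 12 lower in model than in control livers. Stellate cell and fibroblast markers, also 12, summed to 445 to 525 CPM in treated, 223 to 257 CPM in model and 285 to 384 CPM in control livers. They did not move together, with 3 called higher and none lower than in model livers, and 3 higher and 3 lower than in control livers. Col3a1 was at 147 ± 24.8 CPM in treated and 31.9 ± 14.7 CPM in control livers, and Lrat at 4.20 ± 0.548 and 10.6 ± 2.63 CPM, both named after their values were seen. The part of these cells in the Cxcl12 values was not tested.

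Chemokines of lymphoid homing were sparse. Cxcl13, which attracts B cells through Cxcr5, had 0.103, 0.183 and 0 CPM in treated livers, 0.288, 0.599 and 0.227 CPM in model livers and 1.47, 0.961 and 2.18 CPM in control livers, in 3 separate ranges. It fell 15.7-fold in treated relative to control livers (log2 fold change -3.98, SE 0.92, adjusted p = 0.013), from counts of at most 12 per treated library, and was not called against model (adjusted p = 0.208) or in model against control livers (adjusted p = 0.305). B cell markers summed to 4.40 to 10.9 CPM in treated, 13.6 to 15.1 CPM in model and 3.00 to 13.4 CPM in control livers, and their part in the Cxcl13 values was not tested. Without treated replicate 2 the log2 fold change of Cxcl13 against control livers was -4.82. Ccl21a, a Ccr7 ligand of lymphatic endothelium with near-identical copies, had 0.865, 0.931 and 0.315 CPM in treated livers, 0.936, 0.499 and 0.455 CPM in model livers and 0.572, 2.10 and 1.08 CPM in control livers. Its groups overlapped, as did those of Ccl19, Ccr7 and, for treated livers against the others, Cxcr5. Ccl21b and Ccl21d had at most 7 and 6 counts in a library, and counts of the Ccl21 copies are uncertain.

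Ligands and receptors of T cell and epithelial homing gave 1 call. Ccl27a had 3.34, 3.27 and 1.72 CPM in treated livers, 3.85, 3.16 and 3.36 CPM in model livers and 5.84, 5.40 and 5.84 CPM in control livers. Both other groups lay below the control libraries, and it fell 2.05-fold in treated relative to control livers (adjusted p = 0.0228), a call lost without any 1 control library or treated replicate 3 (highest adjusted p = 0.0592). The gene overlaps Il11ra1 on the opposite strand, and the strand setting of the counting is not stated. Il11ra1 was at 28.5, 26.6 and 35.2 CPM on average in treated, model and control livers and was not called. Ccl25, a gut and thymus homing ligand, had 3.64 ± 0.918 CPM in treated, 4.30 ± 0.777 CPM in model and 5.91 ± 0.389 CPM in control livers (adjusted p = 0.0712 for treated against control). Elavl1 overlaps Ccl25 on the opposite strand, with mean counts of 2038.0 against 268.0. Ccl22, a ligand of Ccr4 made by dendritic cells and macrophages, had 1.13 ± 0.270, 0.343 ± 0.221 and 0.328 ± 0.0258 CPM in treated, model and control livers. Treated libraries lay above all others, with adjusted p = 0.083 and 0.0509 by edgeR. Against control livers it was called by DESeq2 (adjusted p = 0.0133), limma-voom (0.0475) and limma on FPKM (0.0104). So it was by edgeR with relative log expression scaling (0.0499), on those 2 groups alone (0.0325) and with counts divided by 4 (0.0316). Against model livers DESeq2 (0.0227), limma on FPKM (0.0187) and edgeR without model replicate 3 (0.0492) called it.

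Both chemokines that are anchored in the membrane, Cxcl16 and Cx3cl1, were higher in treated livers. Cxcl16 (chromosome 11, 70453983 to 70459984), the Cxcr6 ligand and a scavenger receptor for oxidized lipoprotein, had 18.4, 15.7 and 14.9 CPM in treated livers, 4.34, 8.64 and 4.50 CPM in model livers and 8.67, 5.36 and 5.28 CPM in control livers. Treated libraries lay above all others. It was 2.80-fold higher than in model livers (log2 fold change 1.49, SE 0.29, adjusted p = 0.0102) and 2.54-fold higher than in control livers (adjusted p = 0.00898), under all alternatives. Zmynd15, which overlaps it on the opposite strand, had mean levels of 5.93, 6.57 and 8.33 CPM in treated, model and control livers and was not called.

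Cx3cl1, fractalkine, had 1.61, 0.947 and 1.48 CPM in treated livers, 0.378, 0.183 and 0.140 CPM in model livers and 0.375, 0.308 and 0.354 CPM in control livers. Again the treated libraries stood apart. It was 5.73-fold higher than in model livers (adjusted p = 0.0159) and 3.88-fold higher than in control livers (adjusted p = 0.0268). These calls were lost without model replicate 2 or 3 or treated replicate 1 or 3 against model (highest adjusted p = 0.069), and without any 1 control library or treated replicate 1 or 3 against control livers (highest adjusted p = 0.105). The receptors were not called, with Cxcr6 at 0.284 ± 0.302 CPM in treated, 0.834 ± 0.624 CPM in model and 0.957 ± 0.604 CPM in control livers and Cx3cr1, a receptor of patrolling monocytes, at 1.34 ± 0.500, 1.03 ± 0.624 and 0.415 ± 0.244 CPM in that order. Fyco1 overlaps Cxcr6 on the opposite strand (mean counts 2147.6 against 40.1). The span of Cx3cr1 overlaps Gorasp1 on the same strand, among other genes (2151.9 against 56.9). Cxcl14, a ligand of epithelia and fibroblasts, had 9.97, 10.4 and 12.1 CPM in treated livers, 2.77, 3.23 and 7.78 CPM in model livers and 7.52, 0.577 and 1.74 CPM in control livers. Treated libraries lay above all others, without a call by edgeR (adjusted p = 0.436 and 0.22). Against control livers it was called by limma-voom (adjusted p = 0.0254), by limma on FPKM (0.0385) and by edgeR without control replicate 1 (0.00974).

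Of the 4 atypical receptors, Ackr1 and Ackr2 were lower in treated than in control livers, and no other contrast gave a call by edgeR. Ackr2 (chromosome 9, 121898355 to 121911074), a scavenger of inflammatory Ccl ligands, had 2.08, 2.32 and 2.42 CPM in treated livers, 2.56, 2.70 and 2.57 CPM in model livers and 5.52, 5.46 and 4.81 CPM in control livers. Treated libraries lay below the model libraries, and both below all control libraries. Ackr2 fell by 1.21 on the log2 scale in treated relative to control livers (SE 0.21, adjusted p = 0.0032), under all alternatives. For model against control livers the fold was 0.496, with adjusted p = 0.0507 by edgeR, 0.000186 by DESeq2 and 0.0412 by limma-voom.

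Ackr1, which binds many chemokines on venular endothelium and erythroid cells, had 0.660, 1.04 and 0.881 CPM in treated livers, 1.04, 0.815 and 0.962 CPM in model livers and 3.31, 1.15 and 3.06 CPM in control livers. Control replicate 2 was nearly as low as the other groups. Ackr1 fell 2.91-fold in treated relative to control livers (adjusted p = 0.0307). Of 16 alternatives 9 ended this call, including the fits without control replicate 1 or 3 and with any 1 treated library left out. Part of its span overlaps Cadm3 on the same strand, which was at 3.19, 3.34 and 5.86 CPM on average in treated, model and control livers without a call. Ackr4, which takes up Ccl19 and Ccl21, had 1.23 ± 0.372 CPM in treated, 1.74 ± 0.331 CPM in model and 1.84 ± 0.474 CPM in control livers, with no call. Acad11 overlaps Ackr4 on the opposite strand, with mean counts of 15475.3 against 93.3, and the strand setting of the counting is not stated.

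In the pathway around the family, each list outside it held called genes, though most genes were not called against model livers. Among all genes tested 5.21% were higher and 4.44% lower than in model livers. Against control livers these shares were 9.36% and 8.47%. Of 37 genes of chemokine receptor signalling and migration, 11 were higher and none lower than in model livers, and 20 were higher and 3 lower than in control livers. Without model replicate 1, 3 were higher than in model livers and 1 lower than in control livers. In that fit 525 of 18859 genes were higher than in model livers. Icam1, the adhesion ligand of leukocyte integrins, was at 37.9 ± 4.85 CPM in treated and 13.6 ± 2.40 CPM in control livers (2.80-fold, adjusted p = 0.00011), and Pik3r5, the regulatory subunit of the phosphoinositide kinase downstream of chemokine receptors, was 6.19-fold higher in treated than in control livers (adjusted p = 0.000633). Of 19 other chemoattractants and their receptors, 3 were higher than in model and 5 than in control livers, none lower, with Lgals3 (galectin-3) 44.5-fold and Cd74, a receptor for the chemokine-like cytokine Mif, 3.13-fold higher than in control livers (adjusted p = 1.36e-05 and 0.000903).

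Of 24 genes of NF-kB inducers and feedback, 7 were higher than in model and 11 than in control livers, and none was lower. Of all genes 5.21% and 9.36% were higher in these comparisons. Without model replicate 1, 4 of 25 were higher than in model livers. Tnfaip3, a feedback inhibitor of NF-kB, was 5.72-fold higher than in control livers (adjusted p = 0.000137) and Rela, a subunit of NF-kB, 1.98-fold higher than in model livers (adjusted p = 0.00115). The cytokines Tnf and Il1b had 0.826 ± 0.226 and 1.42 ± 0.537 CPM in treated, 0.274 ± 0.259 and 1.15 ± 0.201 CPM in model and 0.446 ± 0.308 and 1.78 ± 1.70 CPM in control livers, and Il6 was at 0 in the treated libraries. Of 21 genes for glycosaminoglycan carriers and proteases that trim chemokines, 4 were higher and none lower than in model livers, and 5 were higher and 3 lower than in control livers, with 2 higher than in model livers without model replicate 1. Mmp12, which cleaves ELR-type Cxcl ligands, was at 195 ± 21.4 CPM in treated, 12.98 ± 6.15 CPM in model and 1.28 ± 0.433 CPM in control livers (152-fold for treated over control, adjusted p = 9.77e-05). Mmp2, which cleaves Cxcl12, was 2.82-fold higher than in model livers (adjusted p = 0.00173).

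Before any filter, the 14 members that could not be compared held 4 to 37 counts over all 9 libraries. They were Ccl1, Ccl8, Ccl11, Ccl12, Ccl17, Ccl21b, Ccl21d, Cxcl3, Cxcl5, Cxcl17, Ccr4, Ccr6, Ccr10 and Cxcr1. The filter keeps a gene that is high in 1 group alone, so the 41 are not a neutral sample of the family. Among the 41, libraries did not overlap in 16 higher and 4 lower members for treated against model livers (16.2% and 15% of all genes), in 19 higher and 8 lower for treated against control livers (19.3% and 18%), and in 3 higher and 7 lower for model against control livers (9.71% and 10.2%). The 3 members higher in each model than each control library were Cxcl1, Ccl5 and Ccr1, and the 7 lower were Ackr1, Ackr2, Ccl25, Ccl27a, Cxcl12, Cxcl13 and Cxcr5, all named for this pattern after their values were seen.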

How the data were processed

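The submitters' processing notes name HISAT2, a spliced aligner, with no version. How reads were assigned to genes, on which strand and with which annotation or genome build is not given in the sources used here. Per the file headers, the authors deposited FPKM and estimated counts per gene and per transcript. The deposited estimated counts are whole numbers, and no rounding was needed. All 55 members were in GENCODE M21 (build GRCm38), 48 of them with the same start and end, so the coordinates are GRCm38.

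Gene counts of all 9 libraries were fitted together with edgeR 4.0.16 in R 4.3.3 (quasi-likelihood F tests with robust dispersions, TMM scaling, filterByExpr with a minimum count of 10 and a minimum total of 15). Standard errors are the log2 fold change divided by the root of F. P-values were adjusted by Benjamini-Hochberg over the 18113 genes tested, and a call is an adjusted p under 0.05. Alternatives used DESeq2 1.42.0 and limma 3.58.1, other filters and scalings, log2(FPKM + 0.1), single libraries left out and, chosen after seeing the data, counts divided by 4. Counts stand for estimates, so no counting intervals are given. Of the 41 tested members, 1 is counted in the totals but not reported here by name. The members, lists and tests were chosen with earlier results of these data known. Values per library are given for every called member and for the member of highest FPKM in each role list. From each pathway list the 2 called genes of smallest p are named, and further genes, such as cytokines and markers, were named for their role. Markers of T, natural killer and dendritic cells and of cholangiocytes and mesothelium are given in the closing section.

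The fit was tested on simulated counts with 100 genes planted at each fold. Planted genes were picked at random, and counts were drawn with the dispersion trend instead of each gene's own spread. Recovery among members of few counts was not tested. For treated against model livers (17490 genes), 41 of 100 genes changed 2-fold and 69 of 100 changed 4-fold were recovered, with 8 false calls. For treated against control livers (17512 genes) these were 37 and 74 with 3 false calls, and for model against control livers (17490 genes) 36 and 72 with 4 false calls.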

Additional observations from a re-analysis of the deposited data

How the results depend on the processing

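Skeletal muscle transcripts were present in all 3 treated libraries and in model replicate 1, so treatment and these transcripts cannot be told apart against control livers. Leaving model replicate 1 out of the fit left 12 higher and 5 lower members for treated over control livers. That fit cannot separate treatment from muscle transcripts, since the library is in neither group and all 3 treated libraries still carried them. No called member changed direction under any alternative. In treated over model livers, the 8 higher members became 13 with DESeq2 and 13 with limma on log2(FPKM + 0.1). They became 4 to 6 with single libraries left out (4 without any 1 model library or treated replicate 1 or 3). Over all genes the 943 higher became 1477 of 17014 with DESeq2 and 1664 with limma on FPKM. With single libraries left out they became 525 to 721. The 2 lower members became 1 with limma on FPKM, 1 with the replicate block and 1 to 2 with single libraries left out. Over all genes the 805 lower became 400, 545 and 357 to 593 in that order. In treated over control livers the 5 lower members became 3 to 4 with single libraries left out (3 without control replicate 1 or 3). The 12 higher members stayed within 1.5 times, at 8 to 12 with single libraries left out. Over all genes the 1696 higher and 1535 lower became 1170 to 1358 and 999 to 1233 without single treated or control libraries. In model over control livers, where edgeR called 0, DESeq2 called 1 higher member (Ccr1) and 3 lower (Ackr1, Ackr2 and Cxcl12), and limma-voom, the filter at a mean of 1 CPM and counts divided by 4 each called 1 lower (Ackr2). Members called by DESeq2 but not by edgeR were Ccl3, Ccl4, Ccl22, Ccr1 and Ccr2 (higher) and Ccr3 (lower) for treated over model livers, and Ccl3, Ccl5, Ccl7, Ccl22 and Cxcl9 (higher) and Ccl25 (lower) for treated over control livers. The cause of these shifts was not tested. FPKM moved the median log2 fold change of all genes to 0.15 for treated over model and 0.18 for treated over control livers, so changes on that scale are relative to these medians. Dividing counts by 4 left 35 members tested and the 10 and 17 called members all kept their calls. Label numbers did not pair the libraries, since deviations of same-numbered libraries correlated at -0.076 to 0.072. With the replicate block 6 members were higher in treated than in model livers and 12 higher and 4 lower than in control livers. Over all genes that block gave 700 higher than in model livers and 1398 higher and 1213 lower than in control livers. Small estimated counts limit the precision for members under about 1 CPM.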

Other observations

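T cell markers, a list of 12, summed to 14.96 to 17.8 CPM in treated, 5.98 to 10.98 CPM in model and 5.40 to 12.7 CPM in control livers, with Il7r, the interleukin-7 receptor, at 57.2% of the sum in treated livers, and 1 marker was called higher in treated than in model livers. Natural killer cell markers summed to 2.89 to 6.29 CPM in treated, 4.88 to 6.39 CPM in model and 3.31 to 5.49 CPM in control livers, with none of the 7 tested called. Dendritic cell markers summed to 25.5 to 36.1 CPM in treated, 8.44 to 10.2 CPM in model and 9.40 to 18.5 CPM in control livers, and Itgax, an integrin that macrophages also carry, held 79.23% of the treated sum. Cholangiocyte markers summed to 36.1 to 60.9 CPM in treated, 23.1 to 47.7 CPM in model and 27.2 to 45.7 CPM in control livers. The list of lymphoid stroma and mesothelium summed to 72.7 to 90.0 CPM in treated, 85.3 to 104 CPM in model and 78.5 to 109 CPM in control livers, nearly all from Prox1, which hepatocytes also express.

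Within Cxcl1, a transcript of 1871 bases with 1 exon is annotated beside the spliced form of 4 exons. It held 32.8 to 51.2% of the FPKM summed over both transcripts in the 9 libraries. The annotation gives the gene both protein coding and retained intron transcripts. In treated replicate 1 the transcript with 1 exon held 3111 of 5777 estimated counts, and the Cxcl1 levels and folds above include it. Its share is set down here as a value, since no comparison was made of it.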
